A study of Mus musculus with 24 samples.

Results

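The calcineurin and NFAT genes of mouse lymphoid progenitors were followed in RNA-seq counts from 2 cell populations and 4 genotypes. The group was defined by symbol as Nfatc1, Nfatc2, Nfatc3, Nfat5, Ppp3ca, Ppp3cb, Ppp3cc, Ppp3r1 and Rcan1, and all 9 symbols were found among the 24421 genes counted in each of the 24 libraries. All 9 passed the filter on low counts in both populations, and the smallest count of any of them in any library was 14 reads, on Rcan1. CLPs, the common lymphoid progenitors, had been sorted as CD45.2+Lin-IL-7R+ cells and B cell progenitors as CD45.2+B220+IgM-IL-7R+ cells from the bone marrow of transplanted mice, 1 library of each population per mouse and 3 mice per genotype. The labels call the genotypes PLCgamma1+/+PLCgamma2+/+ (wild-type below), PLCgamma1-/-PLCgamma2+/+ (PLCgamma1-deficient), PLCgamma1+/+PLCgamma2-/- (PLCgamma2-deficient) and PLCgamma1-/-PLCgamma2-/- (double-deficient). Donors of every genotype, the wild-type included, carried MxCre, a Cre under an interferon-inducible promoter, and a YFP reporter, and had received poly(I:C). Their marrow was placed in lethally irradiated CD45.1+ wild-type recipients. In the PLCgamma1-/- genotypes Plcg1 was deleted in whichever donor cells Cre had acted on, whereas the Plcg2 loss was carried in the germ line. Each recipient counted as 1 replicate. How many donors stood behind a genotype is not given in the sources used here, and p-values measure the spread between recipients.

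PLCgamma enzymes cleave a membrane lipid into diacylglycerol and IP3, and IP3 releases calcium from internal stores. Calcium switches on calcineurin, a phosphatase made of a catalytic A subunit (encoded by Ppp3ca, Ppp3cb or Ppp3cc) and a regulatory B subunit (Ppp3r1). Calcineurin removes phosphates from the transcription factors Nfatc1, Nfatc2 and Nfatc3, which then enter the nucleus, while kinases such as GSK3 and DYRK send them back out. Nfat5 shares their DNA-binding domain but lacks the calcineurin docking region and responds to osmotic stress. Rcan1 binds and restrains calcineurin, and is itself a target of NFAT. Activity of the phosphatase and the location of NFAT are set on the protein, and neither is measured by RNA counts.

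CLP libraries held 4232345 to 33219995 reads on genes and B cell progenitor libraries 1479582 to 25057223. A count of 3 reads, taken as the floor of detection, equalled between 0.0903 and 2.03 CPM (reads scaled to a common total of reads on genes), which covers counting error only. The share of reads that fell on no gene was 17.9% to 45.2% in CLP libraries and 59.9% to 87.3% in B cell progenitor libraries, so the populations did not overlap in this respect. Plcg2 lay at 195 to 281 normalized CPM in wild-type CLPs and at 98.5 to 115 in double-deficient CLPs. In the B cell progenitors it lay at 211 to 247 and 72.1 to 111. Reads on Plcg2 thus remained in the double-deficient libraries, and their source was not tested. Plcg1, whose floxed exons cannot be told apart in whole-gene counts, overlapped between genotypes in both populations, with 101 to 112 in wild-type and 87.4 to 185 in double-deficient CLPs. In both populations all 6 libraries labelled PLCgamma1-/- lay above the other 6 in Xist and below them in Y-linked transcripts. Any comparison across the Plcg1 genotype is therefore also one across sex-linked transcripts. Of the defining markers of B cell progenitors, Cd79a, a chain of the B cell receptor complex, ranged from 107 to 1183 normalized CPM in CLPs and from 270.0 to 954 in B cell progenitors. The B lineage factors Ebf1 and Pax5 ranged from 99.8 to 776 and from 37.7 to 253 in CLPs, and from 177 to 938 and from 52.4 to 218 in B cell progenitors, so that the CLP libraries were not free of B lineage RNA. In 4 CLP libraries, 1 of each genotype (wild-type replicate 1 and replicate 2 of each mutant genotype), the summed innate lymphoid markers Gata3, Il1rl1, Rora and Id2 lay between 416 and 685 normalized CPM, whereas the other 8 CLP libraries lay between 59.7 and 257. In bulk RNA, more cells of a type and more RNA per cell cannot be told apart.

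Ppp3r1, Ppp3cb and Ppp3ca, 3 of the 4 calcineurin genes, were the most abundant of the group and Nfatc2 the least. Levels of different genes were compared as normalized CPM per kb of exon, over the exons of GENCODE transcripts matched to RefSeq. Ppp3r1 had 49.7 ± 4.05 (SD, n = 12) per kb in CLPs and 63.9 ± 4.39 (SD, n = 12) in B cell progenitors. Among the catalytic subunits Ppp3cb had 48.2 ± 3.93 and 62.6 ± 7.01, Ppp3ca 47.8 ± 8.86 and 52.4 ± 6.81, and Ppp3cc 22.3 ± 5.58 and 25.9 ± 5.96 (SD, n = 12 each). Ppp3r1 exceeded Ppp3cb in 7 of 12 libraries of either population and Ppp3cb exceeded Ppp3ca in 6 of 12 CLP libraries, so these neighbours did not differ beyond their spread. In B cell progenitors Ppp3cb exceeded Ppp3ca in 10 of 12 libraries, with ranges that overlapped. Ppp3cc lay below Nfatc3 in 12 of 12 libraries of either population.

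The NFAT factors were more uneven than the calcineurin subunits. Nfatc3 was the most abundant at 36.4 ± 4.996 per kb in CLPs and 43.5 ± 8.95 in B cell progenitors (SD, n = 12). It was followed by Nfatc1 at 17.4 ± 4.64 and 12.7 ± 2.68, Nfat5 at 11.8 ± 2.82 and 12.3 ± 3.78, and Nfatc2 at 2.74 ± 1.40 and 1.46 ± 0.627 (SD, n = 12). Rcan1, at 5.28 ± 1.21 per kb in CLPs and 4.58 ± 0.921 in B cell progenitors (SD, n = 12), stood between Nfat5 and Nfatc2. In both populations each of the 12 libraries had less Rcan1 than Nfat5 and more Rcan1 than Nfatc2. Nfatc1 and Nfat5 overlapped in range, although Nfatc1 was the higher in 12 of 12 CLP libraries and in 9 of 12 B cell progenitor libraries.

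**Figure D1:**
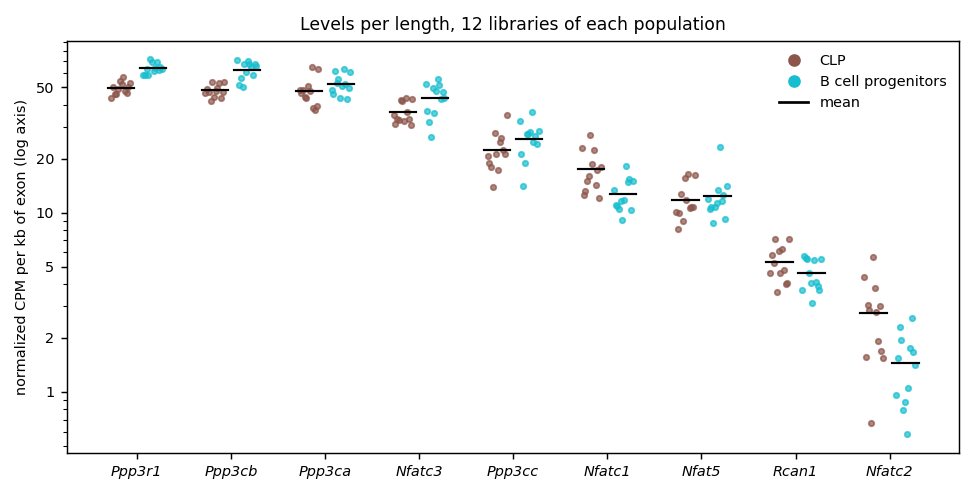
Normalized CPM per kb of exon (log axis) of the 9 genes, with 1 point per library, 12 CLP and 12 B cell progenitor libraries, and a bar at the mean. Mean levels run from 63.9 for Ppp3r1 in B cell progenitors down to 1.46 for Nfatc2 in the same cells.

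The make-up of the NFAT family was compared between the populations as a description, without a test. Of the summed per-kb level of Nfatc1, Nfatc2 and Nfatc3, Nfatc3 held 64.8% ± 5.40 in CLPs and 75.2% ± 4.05 in B cell progenitors (SD, n = 12), Nfatc1 30.4% ± 3.76 and 22.1% ± 2.99, and Nfatc2 4.79% ± 2.00 and 2.68% ± 1.43. The Nfatc3 share was higher in the B cell progenitors than in the CLPs of the same animal in 12 of 12 mice, and the Nfatc1 share was lower in 12 of 12. The 4 CLP libraries rich in innate lymphoid markers held the 4 highest Nfatc1 shares, 32.5% to 36.6%, and in the other 8 CLP libraries Nfatc1 held 28.2% ± 1.91 and Nfatc3 67.8% ± 3.08 (SD, n = 8). Among the catalytic calcineurin subunits, Ppp3cb held 41.0% ± 3.15 in CLPs and 44.4% ± 2.42 in B cell progenitors and was the higher in B cell progenitors in 11 of 12 mice. Ppp3ca held 40.3% ± 4.32 and 37.3% ± 4.27, and Ppp3cc 18.7% ± 3.06 and 18.3% ± 3.07.

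Loss of both PLCgammas was set against the wild-type first in CLPs. None of the 9 genes was called changed by edgeR's quasi-likelihood test, where a call required an adjusted p (Benjamini-Hochberg, over all genes tested) no larger than 0.05 together with a log2 fold change of 0.5 or more in either direction. In that comparison 0.0921% of the 15209 genes tested were called, so calls were rare at large. DESeq2 likewise called 0 of the 9. At an unadjusted p of at most 0.05 there were 3 of the 9, Rcan1, Nfat5 and Ppp3ca, all higher in double-deficient CLPs, beside 7.52% of all genes, and the same number by DESeq2. The median log2 fold change of the 9 was 0.06, beside -0.03 over all genes tested.

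Rcan1, the calcineurin inhibitor, had 11.5, 9.01 and 12.01 normalized CPM in the 3 wild-type CLP libraries and 17.97, 15.6 and 17.9 in the double-deficient ones. PLCgamma1-deficient CLPs had 14.5, 15.3 and 9.97, and PLCgamma2-deficient CLPs 13.2, 11.6 and 10.1. All 3 double-deficient libraries thus lay above the other 9, and the share of all genes with such a split was not counted. The log2 fold change of double-deficient over wild-type CLPs was 0.64 (SE 0.21), with an unadjusted p of 0.0105 and an adjusted p of 0.444 by edgeR. Against PLCgamma2-deficient CLPs it was 0.54 (SE 0.21, adjusted p = 0.591 by edgeR), and against PLCgamma1-deficient CLPs, which share the sex-linked class, 0.37 (SE 0.21, adjusted p above 0.99). The double-deficient CLP libraries also had smaller shares of reads on no gene than the wild-type ones, 17.9% to 23.5% against 24.8% to 29.8%. With that share as a covariate the log2 fold change of Rcan1 was 0.52 with an adjusted p of 0.646 by edgeR. Left-out libraries moved it between 0.55 and 0.72. Markers of macrophages and neutrophils also differed between wild-type and double-deficient CLPs. The sum of 7 macrophage markers, among them C1qa, C1qb and Adgre1, was 37.0 to 62.1 normalized CPM in wild-type and 69.0 to 84.7 in double-deficient CLPs, and that of 6 neutrophil markers, among them Elane and Mpo, 1878 to 2928 and 2946 to 6303, both without overlap. PLCgamma1-deficient CLPs, at 78.6 to 108 and 2465 to 6720, and PLCgamma2-deficient CLPs, at 58.6 to 108 and 1923 to 6347, also reached these levels. Over the 12 CLP libraries Pearson's r of Rcan1 was 0.39 with the macrophage sum and 0.46 with the neutrophil sum. With the share of reads on no gene it was -0.68, and with log2 reads on genes 0.66. The part of these markers in the Rcan1 levels was not tested.

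Rcan1 lies on chromosome 16 of GRCm38 (mm10), from 92391951 to 92466169 on the minus strand, and is transcribed from 2 starts. The inner start lies upstream of the last exons and makes the short isoform, which is known to be induced through NFAT, while the outer start makes the long isoform. Whole-gene counts add both. The 250 bases before each start are shown because NFAT proteins bind the core GGAAA, and only the inner window holds it. They were read from a RefSeq promoter table for GRCm38.p6 and are written 5′ to 3′ along the minus strand, with each GGAAA, or its reverse complement TTTCC, in capitals.
Rcan1 inner start, chr16:92400079-92400328: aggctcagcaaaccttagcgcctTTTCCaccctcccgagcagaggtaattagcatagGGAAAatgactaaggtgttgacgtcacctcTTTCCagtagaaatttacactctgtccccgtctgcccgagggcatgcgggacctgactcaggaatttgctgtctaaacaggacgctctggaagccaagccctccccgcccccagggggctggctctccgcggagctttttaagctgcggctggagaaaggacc
Rcan1 outer start, chr16:92466170-92466419: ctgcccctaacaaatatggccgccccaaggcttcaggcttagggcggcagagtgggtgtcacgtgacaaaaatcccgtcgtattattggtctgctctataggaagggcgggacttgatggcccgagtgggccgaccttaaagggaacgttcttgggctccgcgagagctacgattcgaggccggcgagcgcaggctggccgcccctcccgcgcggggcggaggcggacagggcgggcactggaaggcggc

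The inner window held 3 GGAAA cores on either strand, and the outer window 0. At least 3 cores occurred in 6.39% of the 32841 promoter windows of the same length in the table, and at least 1 in 55.6%. The inner window also held 1 match to TGANTCA, the AP-1 motif, found at least once in 6.75% of the windows, and 1 to TGACGTCA, the cyclic AMP response element, found in 1.55%. Motifs were searched on both strands, and none of these matches overlapped another motif searched. Among the other members, Ppp3cb and the first of 2 windows of Nfatc2 each held 3 GGAAA cores, Nfat5 2, the second window of Nfatc2 and the first of 2 windows of Nfatc3 1 each, and Ppp3r1 and the second Nfatc3 window 0. Nfatc1, Ppp3ca and Ppp3cc had no window in the promoter table and were not searched. A match describes the letters alone and not binding in these cells.

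Nfat5, on chromosome 8 from 107293435 to 107379517, had 136, 120 and 143 normalized CPM in wild-type CLPs and 171, 221 and 217 in double-deficient CLPs, without overlap. PLCgamma1-deficient CLPs had 108, 208 and 144 and PLCgamma2-deficient CLPs 133, 157 and 144, so that 1 PLCgamma1-deficient library reached the double-deficient range. Its log2 fold change of double-deficient over wild-type CLPs was 0.60 (SE 0.20), with an unadjusted p of 0.0121 and an adjusted p of 0.465 by edgeR. Against PLCgamma1-deficient CLPs, which share the sex-linked class, it was 0.40 (SE 0.20, adjusted p = 0.9996 by edgeR). For 2 of the 9 genes, Rcan1 and Nfat5, every double-deficient CLP library lay above every wild-type one, which held for 6.27% of all genes tested.

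Ppp3ca, on chromosome 3 from 136669714 to 136937727, encodes the catalytic alpha subunit. It had 232, 209 and 183 normalized CPM in wild-type CLPs and 213, 313 and 302 in double-deficient CLPs, where 2 libraries were high and the third overlapped the wild-type. The log2 fold change was 0.39 (SE 0.17), with an unadjusted p of 0.0414 and an adjusted p of 0.641 by edgeR. With the share of reads on no gene as a covariate it was 0.24, with an unadjusted p of 0.140. PLCgamma1-deficient CLPs had 223, 244 and 178 normalized CPM and PLCgamma2-deficient CLPs 231, 227 and 188. Against PLCgamma1-deficient CLPs, which share the sex-linked class, the log2 fold change was 0.35 (SE 0.17, adjusted p = 0.9996 by edgeR).

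The other 6 genes had log2 fold changes between -0.09 (Ppp3cb) and 0.14 (Ppp3r1) in double-deficient over wild-type CLPs, with standard errors from 0.11 to 0.59. The widest error was that of Nfatc2, whose 3 wild-type CLP libraries had 36.6, 5.60 and 16.1 normalized CPM. At that spread a difference of the size seen for Rcan1 would not have been detectable in Nfatc2. No member was called in the remaining CLP comparisons either, in which edgeR called 0.00658% of all genes for PLCgamma1-deficient and 0% for PLCgamma2-deficient over wild-type CLPs, and 0.0263% and 0.0526% for double-deficient over PLCgamma1-deficient and over PLCgamma2-deficient CLPs. At an unadjusted p of at most 0.05, and also by DESeq2, these comparisons held 0, 0, 0 and 2 members, in that order, the 2 being Rcan1 and Nfat5, beside 7.54% of all genes.

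**Figure D2:**
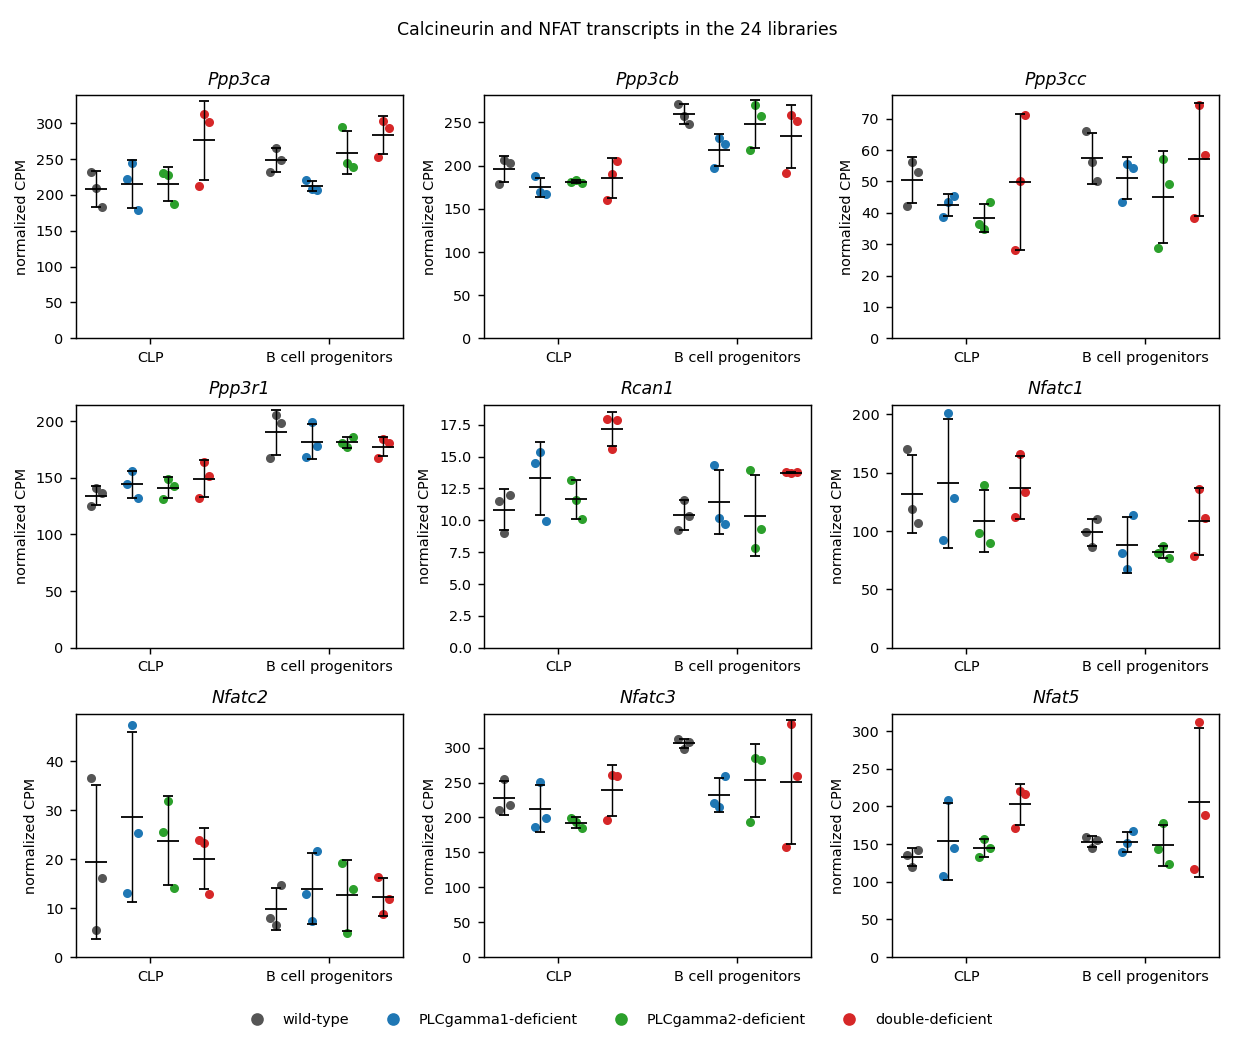
Normalized CPM of each gene in all 24 libraries, with 1 point per library, coloured by genotype, and the mean ± SD of the 3 libraries of each group in black. In CLPs the 3 double-deficient points of Rcan1, 15.6 to 17.97, all lie above the 3 wild-type points, as held for 6.27% of all genes tested.

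In B cell progenitors the double-deficient genotype likewise had none of the 9 genes called, while edgeR called 0.893% of the 15001 genes tested. By edgeR 0 members reached an unadjusted p of 0.05, beside 12.3% of all genes, and DESeq2 called 0 and had 0 at that p. Rcan1 had 9.23, 11.6 and 10.3 normalized CPM in wild-type and 13.8, 13.7 and 13.8 in double-deficient B cell progenitors, a log2 fold change of 0.40 (SE 0.24, adjusted p = 0.513 by edgeR). It was the single member of the 9 with every double-deficient library above every wild-type library, which held for 9.06% of all genes. The macrophage sum was 31.2 to 55.5 normalized CPM in wild-type and 56.5 to 96.4 in double-deficient B cell progenitors, also without overlap. It was 62.6 to 103 in PLCgamma1-deficient and 49.9 to 112 in PLCgamma2-deficient ones, so these also reached the double-deficient levels. Over the 12 B cell progenitor libraries Pearson's r of Rcan1 was 0.75 with the macrophage sum and 0.69 with the neutrophil sum. It was 0.63 with the sum of 4 plasmacytoid dendritic cell markers and -0.64 with the share of reads on no gene. These values describe libraries that share cells and depth, and the part of these cells was not tested. For Rcan1, PLCgamma1-deficient B cell progenitors had 14.3, 10.2 and 9.73 normalized CPM and PLCgamma2-deficient ones 13.9, 7.82 and 9.32. Thus 1 library of each reached the double-deficient level. The rest of the double-deficient range was wide for the NFAT genes.

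Nfat5 had 160, 145 and 155 normalized CPM in wild-type and 117, 312 and 188 in double-deficient B cell progenitors (log2 fold change 0.42, SE 0.27, adjusted p = 0.540 by edgeR). Nfatc3, on chromosome 8 from 106058818 to 106130537, had 312, 299 and 308 in the wild-type and 158, 334 and 260 in the double-deficient libraries (log2 fold change -0.29, SE 0.23, adjusted p = 0.618 by edgeR). Over the wild-type, Nfatc3 also stood at -0.38 in PLCgamma1-deficient B cell progenitors (SE 0.23, adjusted p = 0.475 by edgeR). In PLCgamma2-deficient ones it stood at -0.25 (SE 0.23, adjusted p = 0.919 by edgeR). Double-deficient replicate 1 was the lowest, and replicate 2 the highest, of the 3 in both Nfat5 and Nfatc3. Without replicate 2 the log2 fold change was 0.0001 for Nfat5 and -0.54 for Nfatc3, and without replicate 1 it was 0.70 for Nfat5 and -0.04 for Nfatc3. Neither was called in any of these fits. Replicate 1 had 2858724 reads on genes and replicate 2 had 25057223.

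Ppp3ca had 253, 303 and 294 normalized CPM in double-deficient B cell progenitors and 221, 209 and 207 in PLCgamma1-deficient ones. Wild-type B cell progenitors had 232, 266 and 249. Over the wild-type, the log2 fold change was 0.18 in double-deficient B cell progenitors (SE 0.12, adjusted p = 0.554 by edgeR). In PLCgamma1-deficient ones it was -0.21 (SE 0.12, adjusted p = 0.472 by edgeR). The log2 fold change of double-deficient over PLCgamma1-deficient B cell progenitors was 0.39 (SE 0.12), with an unadjusted p of 0.00776 and an adjusted p of 0.173 by edgeR and 0.0255 by DESeq2, and its size was under the fold threshold with either tool. It was 1 of the 9 at an unadjusted p of at most 0.05, beside 16.6% of all genes. That comparison, within the same sex-linked class, called 0.213% of all genes and no member. No member was called for PLCgamma1-deficient (0.06% of all genes), PLCgamma2-deficient (0.0467%) over wild-type or double-deficient over PLCgamma2-deficient B cell progenitors (0.153%), by edgeR or DESeq2, and neither tool gave any of the 9 an unadjusted p below 0.05.

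**Figure D3:**
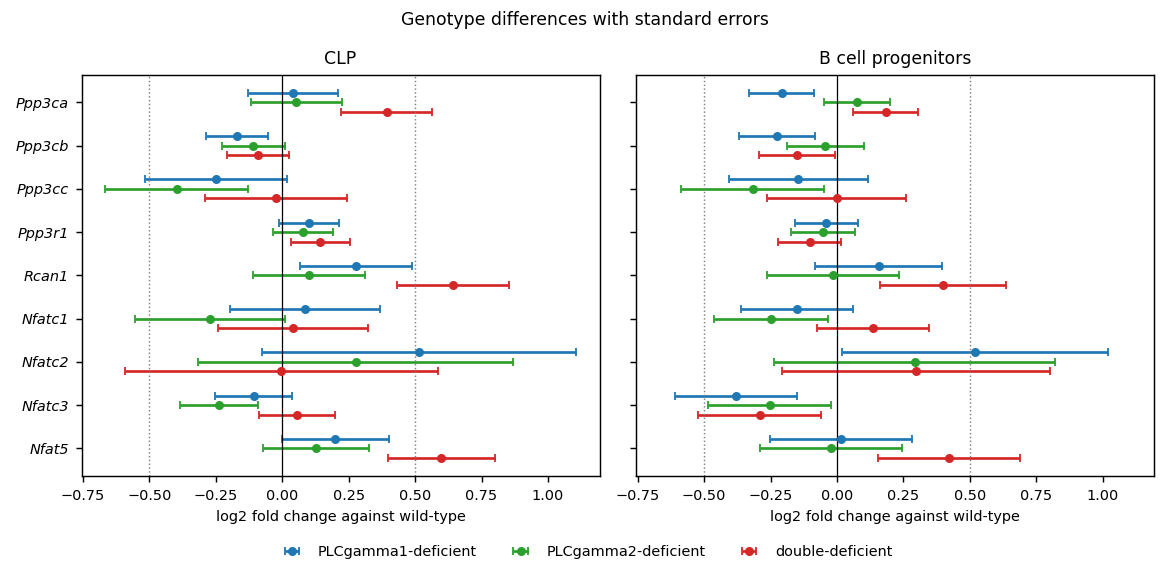
Log2 fold changes of the 3 mutant genotypes against wild-type (points) with standard errors (bars) for the 9 genes, with CLPs and B cell progenitors in separate panels. Dotted lines mark the fold threshold of 0.5, and Rcan1 (0.64) and Nfat5 (0.60) in double-deficient CLPs lie beyond it without passing the adjusted p.

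Whether the joint loss departed from the sum of the single losses was tested in each population. By edgeR and by DESeq2 no member was called and none reached an unadjusted p of 0.05, in CLPs (0.0197% of all genes called) or in B cell progenitors (0.0267%). The departures in CLPs ranged from -0.79 for Nfatc2 (SE 0.84) to 0.62 for Ppp3cc (SE 0.38) on the log2 scale. Whether the effect of the double loss differed between the populations was tested directly, and the test called 0 members and 0% of all 17212 genes, with 0 members at an unadjusted p of at most 0.05 by edgeR or DESeq2, beside 1.37% of all genes. For Rcan1 that difference was -0.25 (SE 0.31).

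Between the populations the calcineurin subunits Ppp3r1 and Ppp3cb were higher, and the NFAT genes Nfatc1 and Nfatc2 lower, in B cell progenitors than in CLPs. Over the mean of the 4 genotypes, 4 of the 9 genes had an adjusted p of at most 0.05, beside 30.1% of all genes, so the members stood not far from the background. With the fold threshold 1 of the 9, Nfatc2, was called, beside 14.4% of all genes. Libraries of the populations also differed in the share of reads on no gene, as given above, and its part in these differences cannot be told apart from the population.

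Ppp3r1, the regulatory B subunit, on chromosome 11 from 17159298 to 17200380, ranged from 125 to 164 normalized CPM in the 12 CLP libraries with a median of 142, and from 167 to 205 in the 12 B cell progenitor libraries with a median of 181. The ranges did not overlap, which held for 2.54% of all genes in this direction and for 1 of the 9. It was higher in the B cell progenitors of 12 of 12 mice. The log2 fold change was 0.36 (SE 0.06, adjusted p = 6.5e-05 by edgeR), under the fold threshold. Within genotypes it was 0.50 in the wild-type (SE 0.11, adjusted p = 0.00986 by edgeR), which just met the threshold, and the call was lost without wild-type CLP replicate 1 or wild-type B cell progenitor replicate 2 or 3. It was 0.34 in PLCgamma1-deficient, 0.36 in PLCgamma2-deficient and 0.25 in double-deficient cells, with adjusted p from 0.0873 to 0.307. The wild-type comparison called 1 of the 9 genes and 3.5% of all genes, and DESeq2, with a log2 fold change of 0.49, called 0. The other genotypes called 0 of the 9, with 3.78% of all genes in PLCgamma1-deficient, 3.21% in PLCgamma2-deficient and 3.24% in double-deficient cells. They held 3, 2 and 2 members at an unadjusted p of at most 0.05, beside 26.5%, 16.2% and 14.3% of all genes, and DESeq2 also called 0 of the 9 in each.

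Ppp3cb, encoding the catalytic beta subunit, on chromosome 14 from 20499364 to 20546573, ranged from 160 to 206 normalized CPM in CLPs, with a median of 182, and from 192 to 272 in B cell progenitors, with a median of 250. The ranges overlapped at their ends, yet it was higher in the B cell progenitors of 12 of 12 mice. The log2 fold change was 0.38 (SE 0.06, adjusted p = 1.6e-04 by edgeR). The other catalytic genes did not pass the test with all libraries. Ppp3ca was at 0.14 (SE 0.08, adjusted p = 0.179) and Ppp3cc, on chromosome 14 from 70217864 to 70289536, at 0.23 (SE 0.14, adjusted p = 0.217). Without the 2 CLP and 3 B cell progenitor libraries that held fewest reads, an alternative chosen after the data were seen, Ppp3cc was at 0.41 (adjusted p = 0.0413), under the fold threshold, and with counts thinned to the smallest library at 0.049 (adjusted p = 0.923).

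Nfatc2, also called NFAT1 and abundant in resting T cells, on chromosome 2 from 168476410 to 168601657, was the gene that met both thresholds. It ranged from 5.60 to 47.4 normalized CPM in CLPs (median 23.6) and from 4.86 to 21.7 in B cell progenitors (median 12.3), with wide overlap. The log2 fold change was -0.95 (SE 0.30, adjusted p = 0.0209 by edgeR), and -0.88 with an adjusted p of 0.0483 when the mouse was a block in the fit. Without wild-type CLP replicate 1 it was -0.76 with an adjusted p of 0.0523, which ended the call. Without the 5 shallowest libraries, an alternative that left PLCgamma2-deficient B cell progenitors with 1 library, it was -1.50 (SE 0.31, adjusted p = 0.00228). It was lower in B cell progenitors in 11 of 12 mice, with differences within a mouse from -2.67 to 0.24 on the log2 scale and a median of -0.32.

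Nfatc1 ranged from 89.5 to 201 normalized CPM in CLPs (median 124) and from 67.7 to 136 in B cell progenitors (median 87.1), and was lower in B cell progenitors in 11 of 12 mice. Its log2 fold change of -0.46 (SE 0.13, adjusted p = 0.0135 by edgeR) lay just under the fold threshold. In the 24 fits that each left out 1 library it lay between -0.52 and -0.37, and in 6 of them it passed the fold threshold (without PLCgamma1-deficient CLP replicate 1, wild-type CLP replicate 2, or, among B cell progenitors, wild-type replicate 3, PLCgamma1-deficient replicate 3, PLCgamma2-deficient replicate 1 or double-deficient replicate 2).

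**Figure D4:**
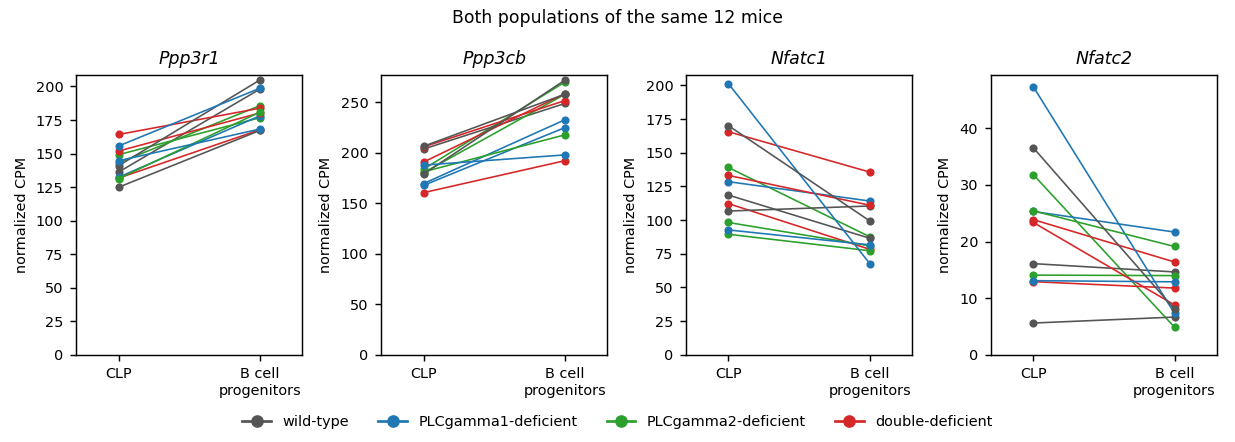
Normalized CPM of 4 genes in CLPs and B cell progenitors, with a line joining the 2 libraries of each of the 12 mice, coloured by genotype. Ppp3r1 and Ppp3cb go up in 12 of 12 mice, whereas Nfatc1 and Nfatc2 go down in 11 of 12.

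Both differences moved with the innate lymphoid markers in CLPs. The 4 CLP libraries with most of those transcripts had 139 to 201 normalized CPM of Nfatc1 and 23.4 to 47.4 of Nfatc2, while the other 8 had 89.5 to 133 and 5.60 to 25.4. Across the 12 CLP libraries Pearson's r with the summed innate lymphoid markers was 0.81 for Nfatc1 and 0.79 for Nfatc2, a description over libraries that share cells and depth with the markers. The T and NK cell markers Cd3e, Cd3d, Cd3g, Cd8a, Nkg7 and Klrb1c, all 6 read in every library, summed to 51.9 to 222 normalized CPM in CLPs and 28.4 to 159 in B cell progenitors, and their r with Nfatc2 was 0.79 in CLPs and 0.89 in B cell progenitors. For Nfatc1 it was 0.22 and -0.10. Other marker sums went with these genes as closely. In CLPs Nfatc1 had an r of 0.86 with 6 CLP markers, among them Flt3 and Il7r, and of -0.82 with 4 later B cell markers (Fcer2a, Cr2, Ms4a1 and Cd22). In B cell progenitors Nfatc2 had an r of 0.87 with the plasmacytoid dendritic cell sum and of 0.84 with the neutrophil sum, so neither gene went with a single list. Without the 4 CLP libraries, an alternative chosen after the data were seen, the log2 fold change of B cell progenitors over CLPs was -0.51 for Nfatc2 (SE 0.29, adjusted p = 0.245 by edgeR) and -0.22 for Nfatc1 (SE 0.11, adjusted p = 0.201), and 0 of the 9 genes were called. Ppp3r1 at 0.39 (adjusted p = 3.4e-04) and Ppp3cb at 0.37 (adjusted p = 0.00353) passed the adjusted p without them. Wild-type CLP replicate 1, whose absence ended the call of Nfatc2, is 1 of the 4.

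**Figure D5:**
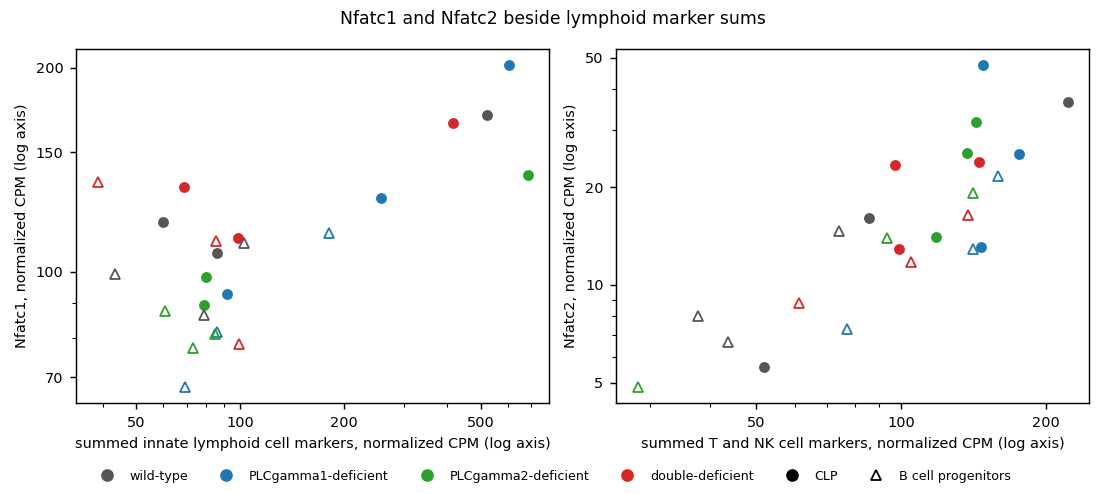
Normalized CPM of Nfatc1 against the summed innate lymphoid markers (left) and of Nfatc2 against the summed T and NK cell markers (right), with 1 point per library, filled for CLPs and open for B cell progenitors, all axes being log axes. The 4 CLP libraries with innate lymphoid sums of 416 to 685 hold the 4 highest Nfatc1 levels.

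The remaining members differed less between the populations. Nfatc3 was higher in B cell progenitors in 9 of 12 mice, with a log2 fold change of 0.26 (SE 0.10, adjusted p = 0.0624 by edgeR), and 0.24 with an adjusted p of 0.0434 when the mouse was a block. Without the 5 shallowest libraries it was at 0.37 (adjusted p = 0.00445), under the fold threshold. Nfat5 was at 0.07 (SE 0.13, adjusted p = 0.710). Rcan1 was at -0.20 (SE 0.11, adjusted p = 0.173) and lower in 10 of 12 mice, and without the 5 shallowest libraries at -0.35 (adjusted p = 0.0385). In double-deficient cells Rcan1 was at -0.32 between the populations (SE 0.22, adjusted p = 0.563 by edgeR). There its 3 B cell progenitor libraries all lay below the 3 CLP libraries, and the share of all genes that did so was not counted.

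Another 42 genes of the pathway were taken from lists by role, and calls below are by edgeR over all genes. The further paralogs Nfatc4 and Ppp3r2 did not pass the filter on low counts within either population. In the fit of all libraries Ppp3r2 passed and stood at -0.0093 between the populations (SE 0.54, adjusted p = 0.993). Of the 10 regulators and drug-binding partners of calcineurin, 0 were called for the double-deficient genotype in either population, by edgeR or DESeq2, with 4 at an unadjusted p of at most 0.05 in CLPs and 2 in B cell progenitors, beside 7.52% and 12.3% of all genes. In CLPs the lowest unadjusted p in that list belonged to Akap5, which anchors calcineurin near membranes, with mean levels of 0.733 normalized CPM, near the floor of the shallower libraries, in double-deficient and 2.03 in wild-type CLPs (log2 fold change -1.42, SE 0.42, adjusted p = 0.385), and to Chp1, a calcineurin B-like protein, with 124 and 95.8 (0.36, SE 0.12, adjusted p = 0.448). In B cell progenitors it belonged to Rcan3, a relative of Rcan1, with 21.9 and 14.2 (0.62, SE 0.21, adjusted p = 0.251). Rcan3 stood at 0.62 (SE 0.22, adjusted p = 0.529) in CLPs too. All these adjusted p are from edgeR.

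None of the 7 NFAT kinases was called for the double loss in either population, by edgeR or DESeq2. The lowest unadjusted p by edgeR in B cell progenitors were those of Dyrk2 (-0.78, SE 0.30, adjusted p = 0.309) and Dyrk1a (-0.55, SE 0.25, adjusted p = 0.391). These were 2 of the 7 at an unadjusted p of at most 0.05, beside 12.3% of all genes. In CLPs they were those of Csnk1e (-0.31, SE 0.16, adjusted p = 0.685) and Dyrk1a (-0.29, SE 0.19, adjusted p = 0.766). There 0 of the 7 reached that p, beside 7.52% of all genes. Of the NFAT scaffolds and partners, 5 were tested in CLPs and 4 in B cell progenitors, and edgeR called 0 in both. At an unadjusted p of at most 0.05 there was 1 in each, beside 7.52% and 12.3% of all genes. That gene was Nfatc2ip, which binds Nfatc2, at -0.62 in B cell progenitors (SE 0.18, adjusted p = 0.170), where DESeq2 called it lower, and at -0.40 in CLPs (SE 0.17, adjusted p = 0.637). The next was the kinase Lrrk2 at 0.59 (SE 0.28, adjusted p = 0.423) and 0.72 (SE 0.49, adjusted p = 0.773).

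None of the 7 other calcineurin substrates was called for the double loss by edgeR. The lowest unadjusted p by edgeR in B cell progenitors were those of Tfeb, the lysosomal transcription factor (-0.58, SE 0.13, adjusted p = 0.0685), and Crtc2 (-0.38, SE 0.18, adjusted p = 0.413). DESeq2 called Tfeb lower. Tfeb alone of the 7 had an unadjusted p below 0.05 by edgeR, beside 12.3% of all genes. In CLPs they were those of Crtc3 (0.45, SE 0.27, adjusted p = 0.745) and Elk1 (0.28, SE 0.19, adjusted p = 0.779), 0 of the 7 reached that p, and DESeq2 called 0.

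Among 11 genes known as NFAT targets in activated lymphocytes, 10 were tested in CLPs and 9 in B cell progenitors. For the double loss 1 was called, in B cell progenitors, where 0.893% of all genes were called. This was Il2ra, the IL-2 receptor alpha chain CD25, which is also a surface marker of pre-B cells and a target of STAT5. It had 73.1, 74.1 and 48.4 normalized CPM in wild-type and 8.52, 2.96 and 8.47 in double-deficient B cell progenitors. PLCgamma1-deficient B cell progenitors had 35.95, 67.1 and 31.1, and PLCgamma2-deficient ones 27.9, 38.4 and 10.7. From wild-type to double-deficient B cell progenitors Il2ra fell by 3.404 on the log2 scale (SE 0.51, adjusted p = 0.00818 by edgeR). The 4 later B cell markers named above, all read in every library, summed to 203 to 267 normalized CPM in the same wild-type and 69.6 to 126 in the double-deficient libraries, without overlap, and their part was not tested. In CLPs Il2ra had 23.9, 78.4 and 31.7 in the wild-type and 7.87, 11.4 and 5.98 in the double-deficient libraries (log2 fold change -2.41, SE 0.42, adjusted p = 0.0832 by edgeR), where only DESeq2 called it. The next lowest unadjusted p in CLPs was that of Egr3 (-0.91, SE 0.58, adjusted p = 0.761).

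Between the populations, 3 of the 7 other calcineurin substrates were called lower in B cell progenitors, where 14.4% of all genes were called in either direction. These were the CREB coactivators Crtc1 (-0.81, SE 0.15, adjusted p = 4.5e-04) and Crtc2 (-0.62, SE 0.09, adjusted p = 4.4e-05) and the ETS factor Elk1 (-0.55, SE 0.10, adjusted p = 3.2e-04). Homer3, an NFAT-binding scaffold, was called higher, from a mean of 22.3 to 51.7 normalized CPM (1.21, SE 0.09, adjusted p = 1.8e-09). Of the NFAT targets, Pdcd1, encoding PD-1, and Tox, a factor of T and innate lymphoid development, were called lower and none higher. Pdcd1 had means of 6.70 normalized CPM in CLPs and 1.67 in B cell progenitors, near the floor of the shallower libraries (-2.27, SE 0.65, adjusted p = 0.0129). Tox had means of 15.7 and 4.50 (-1.90, SE 0.56, adjusted p = 0.0142). The part of the innate lymphoid markers in these calls was not tested. Among the regulators and the kinases edgeR and DESeq2 called 0 in either direction, with 5 of 10 and 4 of 7 at an unadjusted p of at most 0.05, beside 41.7% of all genes, so near the background.

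For the 2 members called in at least 1 comparison, the genes with the most similar pattern over the 24 libraries were listed by Pearson's r of log2 CPM, as a description. For Nfatc2 they were Tnfsf14, P2rx7 and Hip1, each with an r of 0.95. For Ppp3r1 they were Ints8 (0.92), Prpf39 (0.91) and Smek1 (0.91). Libraries of 2 populations with different read composition enter these values.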

How the data were processed

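Counts of reads per gene were deposited for 24 libraries, without normalization. Per the labels and the study's methods, the authors purified poly(A) RNA, made libraries with a NEBNext Ultra kit, which does not mark strand, and, per the submitters' processing notes, used STAR 2.5.0a and mm10. The counting program is not given in the sources used here. Without strand, reads of overlapping and antisense genes cannot be told apart. The lines for reads on no gene and for ambiguous reads were kept out of library sizes and tests. Replicates of a group differed by a chi-square of 8.28 to 133 per degree of freedom, so no library was a copy of another.

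The counts were tested in R 4.3.3 with edgeR 4.0.16 (TMM, filterByExpr, glmQLFit, glmQLFTest, Benjamini-Hochberg adjustment over all genes tested), in 1 fit per population for genotypes and additivity and in 1 fit of all 24 libraries between populations. A call required both an adjusted p no larger than 0.05 and a log2 fold change of 0.5 or more in either direction. Standard errors came from the F statistic. Normalized CPM use the TMM factors of the 24-library fit, and log2 CPM a prior count of 2. The tests were first tested on simulated data. CLP and B cell progenitor libraries of 1 mouse share its number in the titles, so they pair by animal. Their deviations from the group means correlated at a mean r of 0.11, against -0.06 for different mice.

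The 9 members and the lists were chosen with earlier results of these data known. The named genes are the members, the targeted genes, the called genes of each list or, with none called, those of lowest unadjusted p, and the 3 genes most like each called member. Of the genes so named, 1 listed gene is not reported here, nor is 1 of the B cell progenitor markers. Exon lengths came from GENCODE vM21 transcripts with a RefSeq match, and positions from the RefSeq gene table for GRCm38.p6. Alternatives used size factors by RLE, unfiltered genes, the adjusted p alone, DESeq2 1.42.0, counts thinned to the smallest library, each library left out in turn, only the groups compared, replicate or mouse blocks, and the share of reads on no gene as a covariate. Fits on fewer libraries or thinned counts kept the genes of the full fit. Figures were drawn with matplotlib 3.10.9.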

Additional observations from a re-analysis of the deposited data

How the results depend on the processing

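No member was called in any comparison between genotypes, in either additivity test, in the test between the populations' double-deficient effects, or between the populations within a mutant genotype, under any alternative run, including each library left out. Between B cell progenitors and CLPs over the mean of 4 genotypes, the 1 call (Nfatc2) became 2 (with Nfatc1) with no filter on low counts, 4 by the adjusted p alone, 0 without the 4 CLP libraries rich in innate lymphoid transcripts, and 0 to 2 with each library left out. It was 0 without wild-type CLP replicate 1. In the wild-type the 1 call (Ppp3r1) became 0 with RLE size factors, no filter, DESeq2, thinned counts and without those 4 libraries, and 0 to 1 with each left out. Leaving out those 4 libraries, or the 2 CLP and 3 B cell progenitor libraries with fewest reads (the rest are the larger libraries below), was chosen after the data were seen. With no filter the median of all genes between the populations was 0.12, against 0.08.

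With the mouse as a block both counts stayed at 1, and Nfatc3 also passed the adjusted p. The genotypes share replicate numbers, but only 12 of 18 same-number pairs of CLP libraries and 8 of 18 of B cell progenitor libraries correlated above 0.1, and 10 of 12 and 7 of 12 libraries correlated best with their own number. The replicate block moved the calls over all genes for the double loss from 14 to 50 in CLPs and from 134 to 550 in B cell progenitors, with 0 members.

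Calls over all genes varied widely over these alternatives, left-out libraries aside. In CLPs the double loss gave 14 (0 to 169), the loss of PLCgamma1 1 (0 to 16) and of PLCgamma2 0 (0 to 11), the double loss against either single loss 4 (0 to 96) and 8 (1 to 104), and additivity 3 (0 to 29). In B cell progenitors these were 134 (102 to 550), 9 (6 to 29), 7 (0 to 17), 32 (0 to 802), 23 (9 to 161) and 4 (0 to 642). Between the populations the mean gave 2476 (1177 to 5188) and the genotypes 602 (314 to 818), 650 (264 to 1484), 552 (294 to 764) and 557 (318 to 751). DESeq2 called 169 and 444 for the double loss.

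Fold changes near 0 changed sign, none of them called, and the cause was not tested. For the double loss in CLPs, Nfatc2 was 0.0112 with RLE, 0.0124 with no filter, 0.0313 by DESeq2, 0.034 thinned, 0.0216 with only the groups compared, 0.68 without the 4 libraries and -0.39 to 0.80 with each left out. Ppp3cc was 0.0155 with no filter, 0.0674 thinned, 0.0557 with the covariate, 0.0752 in the larger libraries and -0.39 to 0.26 with each left out. Nfatc1 was -0.14 with the covariate, -0.0133 in the larger libraries and -0.10 to 0.27 with each left out. Nfatc3 was -0.0048 with the covariate, -0.0415 without the 4 libraries and -0.0202 to 0.17 with each left out. In B cell progenitors Ppp3cc was 0.0111 with no filter, 0.0391 thinned, 0.11 with the covariate, 0.0015 with only the groups compared, 0.21 in the larger libraries and -0.23 to 0.21 with each left out, and Nfatc1 -0.0507 to 0.32. Between the populations Nfat5 was -0.0113 with no filter and -0.04 to 0.14 with each left out. The smallest library, with 1479582 reads on genes, limits what low genes such as Rcan1 and Nfatc2 can show.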
